A study of Caenorhabditis elegans with 16 samples.

Results

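ATP-binding cassette (ABC) transporter genes of the pgp, mrp, haf and abt families were followed in whole Caenorhabditis elegans carrying a missense allele of the copper pump gene cua-1 and in control worms, each with and without added copper. Members were the genes of the deposited count table whose symbol is pgp, mrp, haf or abt with a number, which gave 37 of 46904 genes. They comprised 15 pgp, 8 mrp, 8 haf and 6 abt genes. RNA had been counted by 3′ digital mRNA sequencing in 16 libraries. The 4 groups of 4 libraries were cua-1(H828Q) worms on plates with 100 µM copper chloride (copper-treated mutant), cua-1(H828Q) worms without added copper (untreated mutant), control worms on the same copper dose (copper-treated control) and control worms without added copper (untreated control). All worms were synchronised and kept for 3 days at 20 °C on NGM agar with Escherichia coli OP50. The control strain, the promoter or origin of the allele and the stage at collection are not given in the sources used here. The labels call the samples biological replicates without naming separate cultures, so the p-values measure the spread between these samples. In whole-worm RNA, fewer cells of a type and less RNA per cell cannot be told apart.

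ABC transporters use ATP to move substrates across membranes. The pgp genes encode P-glycoproteins, full transporters known for exporting drugs and toxins. The haf genes encode shorter transporters, which pair to form a working pump and often sit in organelle membranes. The mrp genes encode multidrug resistance-associated proteins, which export conjugates of glutathione and other organic anions, and the abt genes encode members of the ABCA class, known for moving lipids. In the worm, pgp-1 and mrp-1 are known for tolerance to heavy metals, and many members are active in the intestine. The gene cua-1 encodes the worm's copper-transporting ATPase, the homolog of the human Menkes and Wilson disease pumps.

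The families differed in transcript length, taken as the longest annotated transcript. The pgp transcripts spanned 3459 to 4331 bp, the mrp transcripts 4467 to 5120 bp and the haf transcripts 1902 to 2923 bp. The abt genes spanned 1038 to 6672 bp and included the pseudogenes abt-3 and abt-6. In the pgp family, pgp-15 is annotated as a pseudogene. Of the 37 members, 28 exceeded 3000 bp. The X chromosome carried 17 members, among them 11 pgp and 6 mrp genes, and no haf or abt gene. On the ce11 assembly, pgp-5, pgp-8, pgp-7 and pgp-6 lie in tandem on the minus strand within X:10854216-10877425, with gaps of 3 to 963 bp. A second cluster of pgp-12, pgp-13, pgp-14 and pgp-15 occupies X:12731807-12755962, and pgp-3 and pgp-4 are 721 bp apart within X:11352156-11364050. The pair mrp-2 and mrp-1 lies within X:563711-587898. The strand setting of the counting is not given, so reads of haf-1, haf-3, haf-4, haf-6, mrp-4, pgp-10 and the pgp-12 to pgp-15 cluster cannot be told apart from those of annotated genes that overlap them. The overlapping gene is on the same strand for abt-1, pgp-14 and pgp-15, so for these a strand setting would not separate the reads. Reads of near-identical stretches of neighbouring pgp genes are likewise of uncertain assignment.

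The 37 members took 267 to 1467 counts per library, out of totals between 1891008 and 4001750. The test covered 9787 genes with enough counts and took in 22 members: 7 pgp, 7 mrp, 6 haf and 2 abt genes. The remaining 15 had 0 to 67 counts over all libraries. The 22 tested members were long, with a median of 4086.5 bp against 1375 bp over all genes tested. Genes over 3000 bp made up 12.1% of the genes tested but were 16 of the 22 tested members, while the other 6 were the haf genes. Transcript length is given throughout because 5 libraries held few counts of long transcripts. Their median log2 CPM (counts scaled to library size) of genes over 3000 bp minus that of genes under 800 bp was below -0.5, computed without the members. These libraries, set apart by their values and by no label, are called long-depleted and were copper-treated mutant replicate 4 (-2.23), copper-treated control replicate 1 (-0.75) and untreated control replicates 1 (-2.12), 3 (-0.88) and 4 (-0.54). The other 11 libraries lay between 0.26 and 1.14. Copper-treated mutants thus had 1 long-depleted library, untreated mutants 0, copper-treated controls 1 and untreated controls 3.

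The summed levels of the mrp, pgp and haf genes all had a lower median in the long-depleted libraries, and of these 3 families the mrp sums did not overlap. Summed mrp CPM ran from 22.03 to 143.5 (median 101) in the 5 long-depleted libraries and from 144 to 182 (median 156) in the other 11. Summed pgp CPM ran from 9.61 to 27.7 (median 13.7) in the 5 libraries and from 22.9 to 61.4 (median 43.2) in the 11. Summed haf CPM was 66.6 to 107 (median 77.8) in the 5 libraries and 72.3 to 107 (median 98.9) in the 11. The ratio of summed mrp to summed haf CPM was 0.331 to 1.35 in the 5 libraries and 1.35 to 2.25 in the 11, with the highest long-depleted value just under the lowest of the others. By group, summed mrp CPM averaged 132 ± 40.6 in copper-treated mutants, 150 ± 6.12 in untreated mutants, 164 ± 17.9 in copper-treated controls and 100 ± 58.4 in untreated controls (SD, n = 4 each). Summed pgp CPM averaged 45.1 ± 13.9 in copper-treated mutants, 45.0 ± 3.85 in untreated mutants, 24.7 ± 11.6 in copper-treated controls and 19.8 ± 9.33 in untreated controls. Untreated mutants had the tightest spread of both sums.

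**Figure D1:**
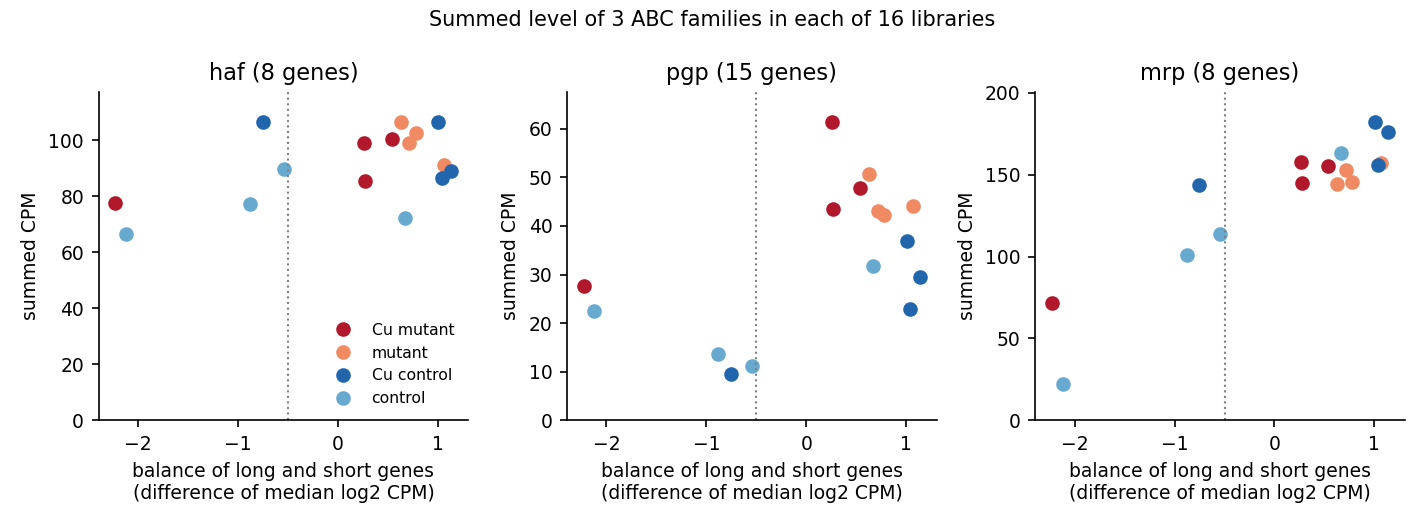
Summed CPM of the haf, pgp and mrp genes (vertical axes) in each of 16 libraries against the library's balance of long and short genes (horizontal axes, difference of median log2 CPM). Each point is a library coloured by group, and the dotted line marks -0.5. The mrp sum is lowest in the libraries left of the line, reaching 22.03 in untreated control replicate 1, while the haf sum stays between 66.6 and 107.

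Levels of different genes are given both per kilobase and as CPM, since counts of 3′ digital libraries need not scale with transcript length, and both are means that include the 5 long-depleted libraries. Per kilobase of longest transcript, the most abundant members over all 16 libraries were mrp-4 (11.6 CPM per kb), haf-3 (10.3), mrp-7 (8.56), haf-4 (8.20) and haf-2 (7.76). The genes mrp-4 and haf-4 are known for roles in intestinal lysosome-related gut granules, haf-2 for efficient RNA interference and mrp-7 for handling methylmercury. Next came haf-9 at 6.04 and mrp-5 at 4.15 CPM per kb. The leading pgp gene by this measure was pgp-9 at 1.52 CPM per kb, ahead of pgp-11 at 1.39 and pgp-1 at 1.31. Without division by length the order was mrp-4 at 58.99, mrp-7 at 42.03, haf-3 at 22.7, haf-4 at 20.8, haf-2 at 19.8 and mrp-5 at 19.6 CPM, so mrp-7 stood above the haf genes. The 2 tested abt genes stood at 2.12 (abt-4) and 0.667 (abt-2) CPM per kb.

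The gene mrp-4, the most abundant member, had 59.1, 64.0, 66.0 and 35.4 CPM in copper-treated mutants, 52.5, 55.4, 60.6 and 57.4 CPM in untreated mutants, 80.8, 70.5, 76.7 and 63.9 CPM in copper-treated controls and 8.26, 82.5, 55.1 and 55.6 CPM in untreated controls. The lowest values came from the long-depleted untreated control replicate 1 and copper-treated mutant replicate 4, and the copper-treated controls lay above the untreated mutants without overlap, while the other pairs of groups overlapped. The most abundant haf gene by CPM, haf-3, had 23.6, 20.1, 20.8 and 11.7 CPM in copper-treated mutants, 21.4, 22.8, 20.0 and 24.2 CPM in untreated mutants, 27.8, 29.5, 27.0 and 27.6 CPM in copper-treated controls and 12.9, 26.8, 23.8 and 22.5 CPM in untreated controls. The copper-treated controls lay above all other groups without overlap. For copper-treated mutants over copper-treated controls, the difference of -0.55 ± 0.25 on the log2 scale did not pass the test (edgeR quasi-likelihood, Benjamini-Hochberg adjusted p = 0.278). Here and below, a log2 fold change is followed by its standard error from the fitted model, a gene is called at an adjusted p under 0.05 over all 9787 genes, and CPM values in lists follow replicates 1 to 4.

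**Figure D2:**
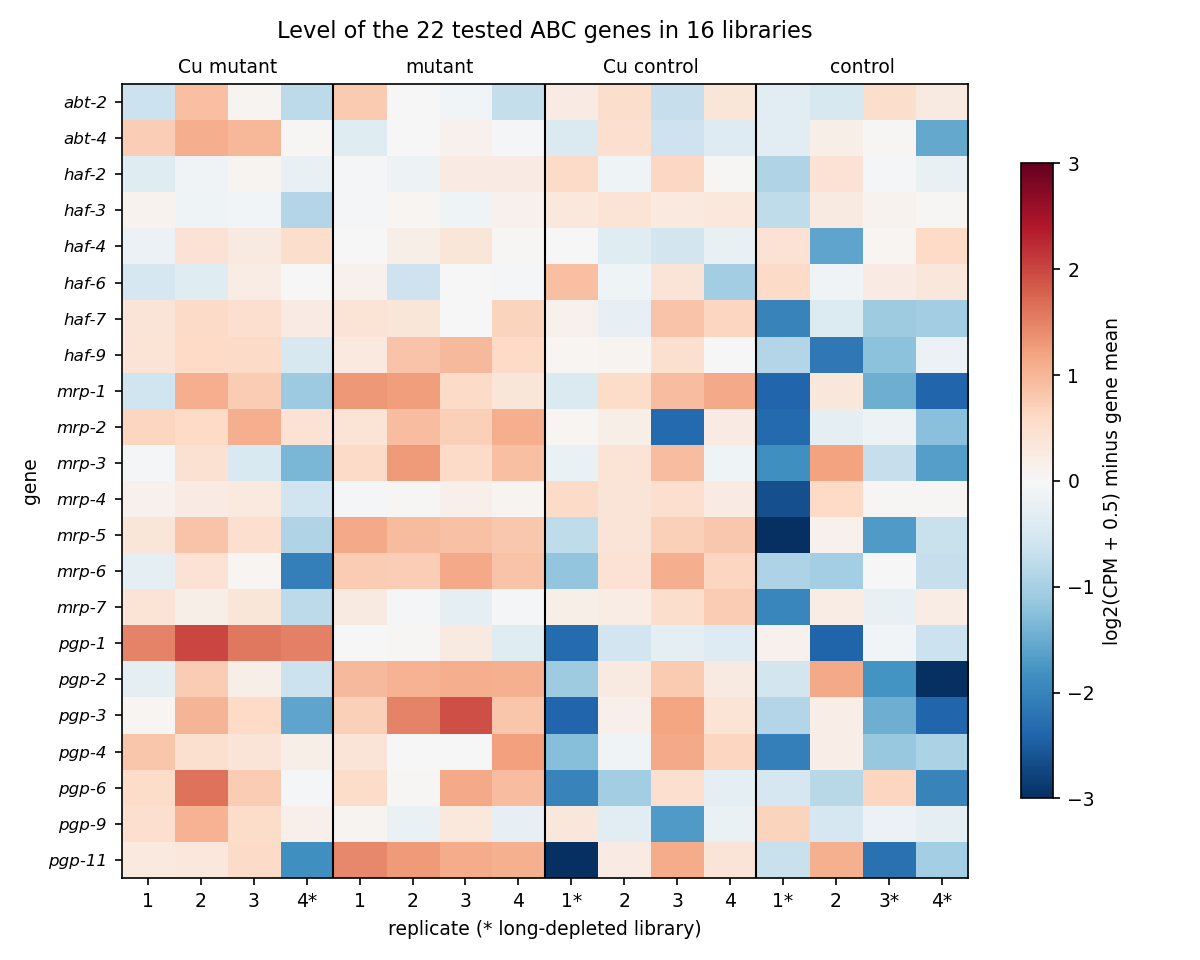
Level of the 22 tested members (down the page) in the 16 libraries (across), as log2(CPM + 0.5) minus the gene's mean over libraries, with group names above and an asterisk at long-depleted libraries. Red is above and blue below the gene's mean. The pgp-1 row is red in all 4 copper-treated mutant libraries, and most mrp and pgp rows are blue in the 3 long-depleted untreated control libraries.

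Without added copper, 5 members rose in the mutant and 0 fell: haf-9, haf-7, mrp-5, mrp-6 and pgp-3. That is 5 of 22 tested members, against 9.39% of all genes tested called higher and 12.5% called lower. The log2 fold changes were 1.75 ± 0.37 for haf-9 (edgeR adjusted p = 0.0069), 1.53 ± 0.38 for haf-7 (0.0152), 1.88 ± 0.54 for mrp-5 (0.0266), 1.70 ± 0.57 for mrp-6 (0.0424) and 2.41 ± 0.82 for pgp-3 (0.0453). The neighbouring X-linked genes mrp-2 and mrp-1 had log2 fold changes of 1.89 ± 0.66 and 2.15 ± 0.78, with edgeR adjusted p = 0.0502 and 0.0544. In this comparison 0 of 4 untreated mutant libraries and 3 of 4 untreated control libraries were long-depleted. The count of 5 depended on single libraries: it was 10 without untreated control replicate 2 (37.7% of all genes in either direction), 2 without any 1 untreated mutant library or untreated control replicate 1 or 3 (7.23% to 9.04%), and 3 without copper-treated mutant replicate 1 or 3, untreated control replicate 4 or copper-treated control replicate 2 or 4 (16.8% to 19%).

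The transporters of haf-9 and haf-4 are known to act together in the membrane of intestinal granules. The haf-9 gene, at I:6081782-6086006 on the plus strand with a 2639 bp transcript, had 18.9, 21.3, 21.1 and 9.86 CPM in copper-treated mutants, 17.4, 25.8, 27.8 and 21.6 CPM in untreated mutants, 14.6, 14.8, 19.6 and 13.9 CPM in copper-treated controls and 7.34, 2.80, 5.73 and 12.4 CPM in untreated controls. Every untreated mutant library lay above every untreated control library. The lowest of all, untreated control replicate 2, was the untreated control library that was not long-depleted. Its partner haf-4, at I:489969-496158 on the plus strand with a 2537 bp transcript, had 17.4, 26.8, 24 and 28.5 CPM in copper-treated mutants, 19.6, 22.4, 25.5 and 20.1 CPM in untreated mutants, 19.6, 15.2, 13.2 and 16.9 CPM in copper-treated controls and 26.6, 6.23, 20.7 and 30.3 CPM in untreated controls. Untreated mutants and untreated controls overlapped, with a log2 fold change of 0.08 ± 0.34 (edgeR adjusted p = 0.871). Within each library, counts of haf-9 per count of haf-4, genes of nearly equal length, were 0.888 to 1.15 in untreated mutants and 0.276 to 0.45 in untreated controls. The ratio was 0.346 to 1.08 in copper-treated mutants and 0.745 to 1.49 in copper-treated controls. This ratio was chosen after its values were seen and carries no test.

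Another haf gene, haf-7, at V:14773258-14777697 on the plus strand with a 2923 bp transcript, had 6.87, 7.89, 7.60 and 6.21 CPM in copper-treated mutants, 7.06, 6.78, 5.20 and 8.5 CPM in untreated mutants, 5.70, 4.29, 9.80 and 8.44 CPM in copper-treated controls and 0.918, 3.74, 2.20 and 2.25 CPM in untreated controls. Untreated controls stood below the other 3 groups without overlap. In addition to its rise in untreated mutants, haf-7 rose with copper in the control, by 1.59 ± 0.38 on the log2 scale (edgeR adjusted p = 0.042). Both contrasts rest on the same 4 untreated control libraries, 3 of them long-depleted, and the haf-7 transcript is just under the 3000 bp used to mark long genes. Counts of haf-7 per count of haf-3 in the same library, a ratio also chosen after its values were seen, were 0.292 to 0.531 in copper-treated mutants, 0.26 to 0.351 in untreated mutants, 0.145 to 0.362 in copper-treated controls and 0.0714 to 0.14 in untreated controls.

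The gene mrp-5 is known as the exporter that moves heme out of the worm intestine. Located at X:14938502-14946317 on the minus strand with a 4724 bp transcript, it had 20.1, 28.2, 22.1 and 8.03 CPM in copper-treated mutants, 34.4, 30.5, 28.9 and 27.3 CPM in untreated mutants, 8.90, 20.5, 25.7 and 27.4 CPM in copper-treated controls and 0.918, 17.1, 4.41 and 9.55 CPM in untreated controls. The untreated mutant and untreated control libraries did not overlap. Across the 8 control libraries, mrp-5 had 0.918 to 9.55 CPM in the 4 long-depleted ones and 17.1 to 27.4 CPM in the other 4. Set against mrp-4, a gene of similar length on the same chromosome, mrp-5 had 0.475 to 0.655 counts per mrp-4 count in untreated mutants and 0.08 to 0.208 in untreated controls. The same ratio, again chosen after its values were seen, was 0.227 to 0.44 in copper-treated mutants and 0.11 to 0.429 in copper-treated controls.

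The gene mrp-6, at X:4177989-4186756 on the minus strand with a 4498 bp transcript, had 2.45, 4.30, 3.19 and 0.365 CPM in copper-treated mutants, 5.51, 5.42, 7.28 and 5.92 CPM in untreated mutants, 1.07, 4.29, 7.10 and 5.02 CPM in copper-treated controls and 1.38, 1.25, 3.09 and 1.69 CPM in untreated controls. Its untreated control value was as low in replicate 2, which was not long-depleted, as in replicates 1 and 4. The P-glycoprotein gene pgp-3, known for resistance of worms to colchicine and chloroquine, lies at X:11352156-11357094 on the plus strand with a 3900 bp transcript. It had 2.21, 4.78, 3.43 and 0.365 CPM in copper-treated mutants, 3.75, 6.78, 9.36 and 4.12 CPM in untreated mutants, 0, 2.38, 5.41 and 2.96 CPM in copper-treated controls and 0.918, 2.49, 0.441 and 0 CPM in untreated controls. Within libraries, mrp-6 per count of mrp-4 was 0.098 to 0.12 in untreated mutants and 0.0151 to 0.167 in untreated controls, and pgp-3 per count of pgp-9 was 0.63 to 1.43 in untreated mutants and 0 to 0.667 in untreated controls. Unlike the ratios of haf-9, haf-7 and mrp-5, these 2 overlapped between the groups, and like them they were chosen after their values were seen. The pgp-3 values are low counts. The floor of 3 counts corresponded to 0.661 to 1.69 CPM depending on the library, for counting error alone. For pgp-3, 3 of the 4 untreated control libraries were under it. Other called genes also had low counts in untreated controls: 3, 4, 7 and 3 for mrp-6 and 2, 12, 5 and 4 for haf-7. In untreated control replicate 1, mrp-5 had 2 counts. Ratios and fold changes of these genes over untreated controls share this limit.

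**Figure D3:**
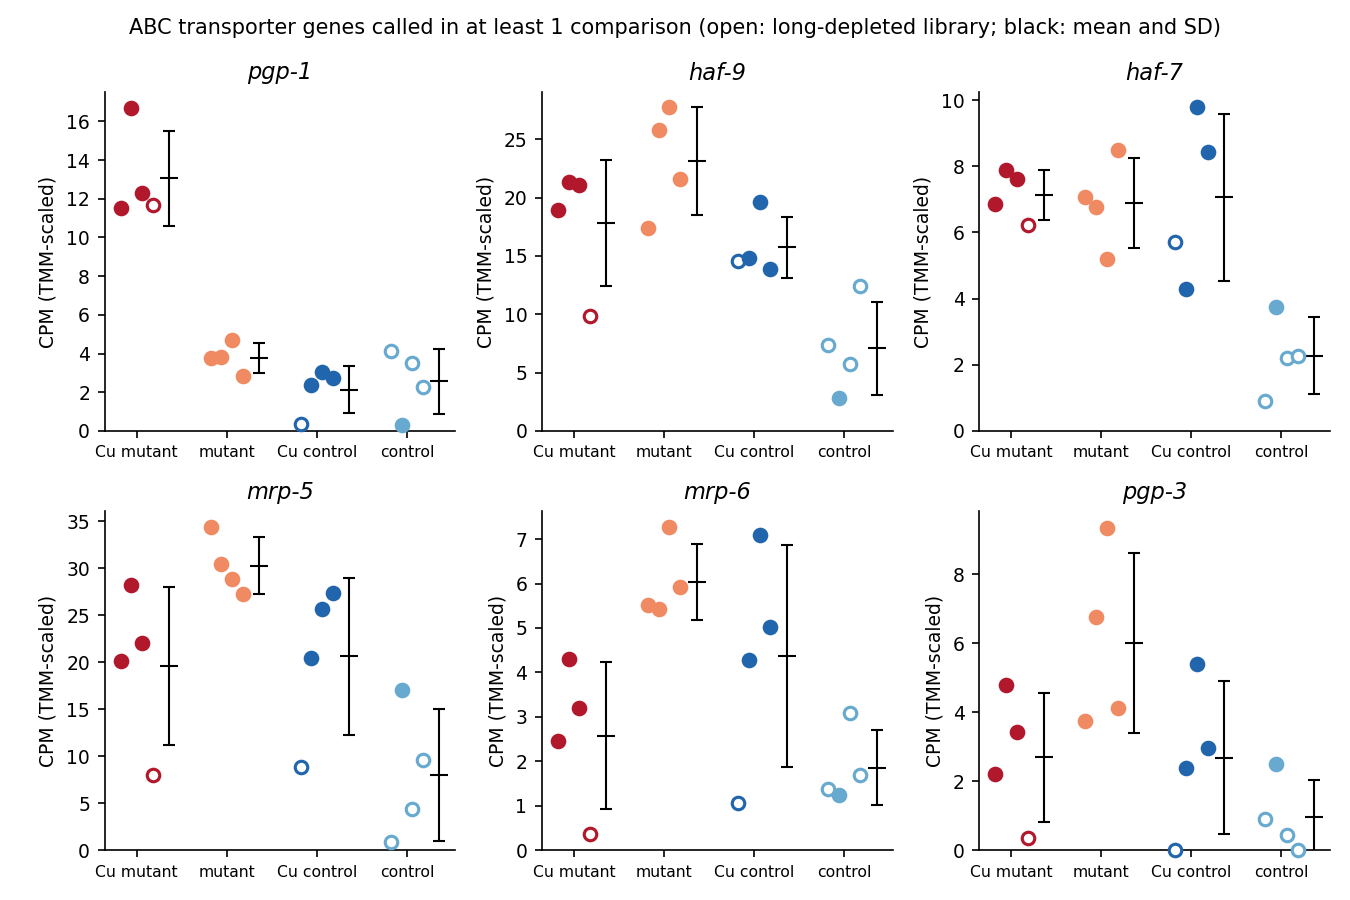
CPM (vertical axes) of the 6 members called in at least 1 comparison, with 1 point per library in the order copper-treated mutant, untreated mutant, copper-treated control and untreated control. Open points are long-depleted libraries and black bars give the mean and SD of 4 libraries. The 4 copper-treated mutant points of pgp-1 lie between 11.5 and 16.7 CPM, above the points of the other 3 groups, and the untreated control points of haf-9 and haf-7 lie below the untreated mutant points.

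By family, the median log2 fold change of untreated mutants over untreated controls was 1.36 for the 7 tested pgp genes, 1.70 for the 7 mrp genes, 0.13 for the 6 haf genes and 0.14 for the 2 abt genes. The 22 members had a median of 1.16, against 0.0022 over all genes tested, and 21 of the 22 fold changes were positive. Over the 16 members above 3000 bp the median was 1.33, and over all 1187 tested genes above 3000 bp it was 0.93. In that length class 3 of 16 members (18.8%) were called higher, against 16.9% of all genes. For the 6 haf genes the median of 0.13 stood beside 0.018 for all genes of 800 to 3000 bp, of which 8.53% were called higher, against 2 of 6 haf genes. Within the members, length and fold change had a Spearman correlation of 0.197 over 22 genes, given as a description, since the genes share the libraries. Of the abundant long members, mrp-4 had a log2 fold change of 0.16 ± 0.41 and mrp-7 one of 0.21 ± 0.37 (edgeR adjusted p = 0.778 and 0.673). The haf median was -0.30 with offsets that remove each library's trend on length, 0.31 with the length balance as a covariate and 0.39 without the long-depleted libraries, and that of all 22 members was 0.35, 0.56 and 0.57 under the same 3 treatments. In the same order the pgp median was 0.53, 0.69 and 0.52, the mrp median 0.67, 0.83 and 0.63, and the abt median -1.27, -0.16 and 0.16. Over the members above 3000 bp the treated medians were 0.49, 0.61 and 0.57, beside 0.067, 0.011 and 0.14 over all genes above 3000 bp. Without the long-depleted libraries 1 untreated control library is left, replicate 2. Values of that fit that involve untreated controls rest on this library, here and below. The libraries of untreated mutants and untreated controls did not overlap for 8 of 22 members, against 28.8% of all genes tested.

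With copper, 1 member was called between the genotypes, and it was pgp-1. That is 1 of 22, against 6.39% of all genes called higher and 0.542% called lower in this comparison. The gene, at IV:12591704-12599169 on the minus strand with a 4092 bp transcript, encodes a P-glycoprotein known for protection against cadmium and arsenite. It had 11.5, 16.7, 12.3 and 11.7 CPM in copper-treated mutants, 3.75, 3.84, 4.68 and 2.83 CPM in untreated mutants, 0.356, 2.38, 3.04 and 2.74 CPM in copper-treated controls and 4.13, 0.311, 3.53 and 2.25 CPM in untreated controls. All 4 copper-treated mutant libraries lay above the 12 others, including the long-depleted replicate 4. The log2 fold change over copper-treated controls was 2.58 ± 0.50 (edgeR adjusted p = 0.00409). Genes above 3000 bp, the class of pgp-1, had a median of -0.34 in this comparison. Against pgp-9, a P-glycoprotein gene of similar length at V:17755892-17764751, pgp-1 had 1.40 to 1.88 counts per count in copper-treated mutants and 0.611 to 0.81 in untreated mutants. In copper-treated controls the ratio ran from 0.05 to 2.25 and in untreated controls from 0.0833 to 0.727, on few counts. This ratio too was chosen after its values were seen.

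The next members on copper did not pass the test. The ABCA-class gene abt-4, at V:323777-330725 on the minus strand with a 5543 bp transcript, had 18.2, 23.2, 21.8 and 11 CPM in copper-treated mutants, 8.16, 10.8, 11.7 and 10.3 CPM in untreated mutants, 7.83, 15.2, 6.76 and 7.98 CPM in copper-treated controls and 8.26, 12.1, 11 and 3.37 CPM in untreated controls. Its copper-treated libraries overlapped between genotypes through mutant replicate 4 and control replicate 2. The log2 fold change over copper-treated controls was 1.0 ± 0.35 (edgeR adjusted p = 0.118). For pgp-9 the difference was 0.98 ± 0.40, with 8.10, 11.9, 8.34 and 6.21 CPM in copper-treated mutants and 7.12, 4.29, 1.35 and 4.79 CPM in copper-treated controls (edgeR adjusted p = 0.201). The median over the 22 members was -0.08, beside -0.04 over all genes tested. By family it was 0.13 for pgp, -0.38 for mrp, -0.17 for haf and 0.44 for abt genes. The member median turned positive with length offsets (0.23), with the length covariate (0.37) and without copper-treated control replicate 3 (0.18) and was -0.09 without the long-depleted libraries. The mrp median was -0.14 with offsets, 0.0062 with the covariate and -0.24 without the long-depleted libraries. In the same order the pgp median was 0.48, 0.86 and -0.07, the haf median 0.0045, -0.08 and -0.04, and the abt median 0.67, 0.61 and 0.61. All genes over 3000 bp had medians of -0.11, 0.22 and -0.25.

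Some markers of tissues and stages moved with the same comparison, while 0 of 4 body muscle, 0 of 4 germline and 0 of 4 excretory cell genes were called. Summed CPM of 6 vitellogenin genes, which encode yolk proteins of the adult intestine, was 1801 to 7837 in copper-treated mutants and 20970 to 22840 in copper-treated controls, and 6 of 6 were called lower. Summed CPM of 5 sperm genes was 524 to 1071 in copper-treated mutants and 194 to 267 in copper-treated controls, and 5 of 5 were called higher. For 4 hypodermis genes the sums were 66.5 to 148 in copper-treated mutants and 0.676 to 7.62 in copper-treated controls, with 2 of 4 called higher. For 7 intestine genes they were 4067 to 8087 in copper-treated mutants and 2868 to 5607 in copper-treated controls, with 1 of 7 called higher. Of 5 tested neuron genes 1 was called higher, with sums over 6 genes of 225 to 267 in copper-treated mutants and 135 to 255 in copper-treated controls, and of 3 pharynx genes 1, with sums of 47.1 to 60.1 in copper-treated mutants and 36.5 to 42.3 in copper-treated controls. Without copper, 2 of 7 intestine genes were called lower, and their sums were 2925 to 3505 in untreated mutants and 3779 to 14750 in untreated controls. Of the 5 tested neuron genes 3 were called higher and 1 lower without copper, with sums over 6 genes of 138.8 to 179.6 in untreated mutants and 171 to 265 in untreated controls. Of 3 pharynx genes 2 were called higher, with sums of 51.7 to 75.9 in untreated mutants and 19.7 to 36.5 in untreated controls. Of 4 body muscle genes 1 was called higher, with sums of 1343 to 1510 in untreated mutants and 849.9 to 1708 in untreated controls. Of 4 germline genes 1 was called lower, with sums of 1395 to 1486 in untreated mutants and 1377 to 1875 in untreated controls. Of 5 sperm genes 2 were called higher, with sums of 596 to 652 in untreated mutants and 152 to 462 in untreated controls. Without copper 0 of 6 yolk, 0 of 4 hypodermis and 0 of 4 excretory cell genes were called. No gene of these lists was at 0 over a whole group. The part of these shifts in the transporter results was not tested.

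**Figure D4:**
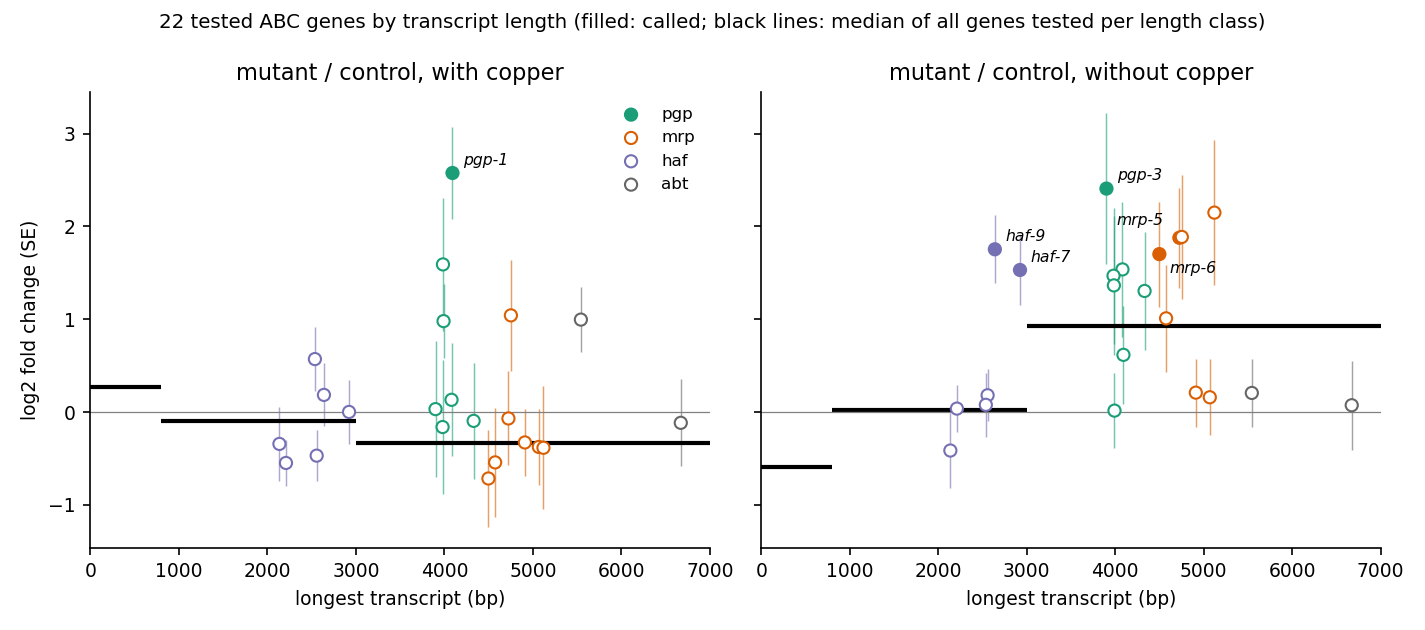
Log2 fold change with standard error (vertical axis) of the 22 tested members against the length of their longest transcript (horizontal axis, bp) for copper-treated mutant over copper-treated control (left) and untreated mutant over untreated control (right). Colours are families, filled points were called, and black lines give the median of all tested genes under 800, 800 to 3000 and over 3000 bp. Without copper the line over 3000 bp stands at 0.93 and with copper at -0.34, while pgp-1 stands at 2.58 with copper.

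Copper in the mutant called 1 member, again pgp-1, which rose by 1.78 ± 0.45 on the log2 scale over untreated mutants (edgeR adjusted p = 0.0483), against 1.78% of all genes called higher and 0.46% lower. Its copper-treated and untreated mutant libraries did not overlap, which held for 5 of 22 members and 19.7% of all genes tested. The other members of this kind, mrp-6, mrp-3, pgp-11 and pgp-2, were lower with copper. The pgp-1 contrast shares the copper-treated mutant libraries with the previous one, so both rest on the same 4 high values. For abt-4 the log2 fold change was 0.86 ± 0.35 (edgeR adjusted p = 0.302). The mrp genes had a median of -0.62, beside -0.42 for all genes over 3000 bp, and mrp-6 had -1.16 ± 0.51 (edgeR adjusted p = 0.357). The mrp median was -0.10 with length offsets, 0.09 with the length covariate and -0.38 without the long-depleted libraries, and that of all genes over 3000 bp -0.02, 0.10 and -0.18. Of 6 yolk genes, 4 were called lower, with sums of 1801 to 7837 CPM in copper-treated mutants and 15490 to 18600 CPM in untreated mutants. Of 7 intestine genes 1 was called higher, with sums of 4067 to 8087 CPM in copper-treated mutants and 2925 to 3505 CPM in untreated mutants. Sums of 4 hypodermis genes were 66.5 to 148 CPM in copper-treated mutants and 21.4 to 44.5 CPM in untreated mutants, and sums of 6 neuron genes were 225 to 267 CPM in copper-treated mutants and 138.8 to 179.6 CPM in untreated mutants. Of these, 0 of 4 hypodermis and 0 of 5 tested neuron genes were called. Sums of 4 germline genes were 1510 to 1644 CPM in copper-treated mutants and 1395 to 1486 CPM in untreated mutants, with 0 of 4 called. None of the sums of these lists overlapped between the groups. Those of the sperm, body muscle, pharynx and excretory cell genes did overlap, with 0 genes called. The part of all these lists in the pgp-1 result was not tested.

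Copper in the control called 1 member, haf-7, described above, against 0.46% of all genes called higher and 1.32% lower. Its libraries did not overlap between copper-treated and untreated controls. Those of haf-9 and haf-3 did not overlap either, with log2 fold changes of 1.20 ± 0.37 and 0.38 ± 0.25 (edgeR adjusted p = 0.118 and 0.365). Such a lack of overlap held for 3 of 22 members and 4.62% of all genes tested. The mrp genes had a median of 0.75 and the pgp genes one of 0.42, beside 0.74 for all genes over 3000 bp. The pgp median was -0.21 with length offsets, -0.10 with the length covariate and 0.49 without the long-depleted libraries. In the same order the mrp median was 0.13, 0.38 and 0.28, and that of all genes over 3000 bp was 0.065, -0.06 and 0.22. Of the control libraries, 1 copper-treated and 3 untreated ones were long-depleted. Of 4 hypodermis genes 1 was called lower, with sums of 0.676 to 7.62 CPM in copper-treated controls and 7.94 to 128 CPM in untreated controls. For pgp-1 the control showed a log2 fold change of -0.18 ± 0.58 (edgeR adjusted p = 0.861).

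The interaction (the mutant's log2 response to copper less the control's) called 0 of 22 members by edgeR, against 5.38% of all genes in either direction. At an unadjusted p under 0.05 there were 7 members, against 28.8% of all genes. DESeq2 called 3, namely haf-9, haf-7 and mrp-6, against 10.5% of all genes it tested. By edgeR, 7 members were called without untreated control replicate 2 (21% of all genes), 5 without copper-treated control replicate 1 (19.3%) and 1 without untreated control replicate 4 (6.85%). The estimates of edgeR were -1.57 ± 0.50 for haf-9 (adjusted p = 0.0747), -2.42 ± 0.77 for mrp-6 (0.0763), -1.53 ± 0.50 for haf-7 (0.0836) and 1.96 ± 0.74 for pgp-1 (0.121). The median was -1.12 over the 16 members above 3000 bp and -1.13 over all genes above 3000 bp. With offsets, the covariate and without the long-depleted libraries it was 0.02, 0.05 and -0.43 over these members and -0.06, 0.17 and -0.39 over all genes of that length. The haf-9 interaction was called without untreated control replicate 2 (edgeR adjusted p = 0.0495), without untreated control replicate 4 (0.0159) and without copper-treated control replicate 1 (0.0388). Without the 5 long-depleted libraries it was -2.65, which rests on untreated control replicate 2, the single untreated control library left. The haf-9 interaction was not called with offsets or the covariate (edgeR adjusted p = 0.308 and 0.209). That of pgp-1 was called without untreated control replicate 2, at 2.39 ± 0.61 (edgeR adjusted p = 0.0177). Whether these interactions passed the test thus depended on single libraries and on the treatment of length.

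The treatment of transcript length changed which calls stood. Fold changes are given in the order length offsets, length covariate and without the 5 long-depleted libraries. For pgp-1 on copper, mutant over control, the log2 fold changes were 3.08, 2.54 and 2.27 under these treatments (edgeR adjusted p = 0.00396, 0.000642 and 1.28e-05). For haf-9 without copper they were 1.16, 1.64 and 2.98 (edgeR adjusted p = 0.031, 0.00762 and 1.28e-05). Both genes were called in all 25 alternatives tried for each, including the removal of any single library. The value of 2.98 rests on untreated control replicate 2, the single untreated control library left. The fit lends it the spread of the remaining groups, and it had the lowest haf-9 level of all. In the same fit haf-4 was called higher in untreated mutants, at 1.76 ± 0.36 (edgeR adjusted p = 0.000964), and that library's haf-4 level of 6.23 CPM was also the lowest of the 16.

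The other calls were less steady. For mrp-5 the log2 fold change fell to 1.02, 0.97 and 0.77 under the 3 treatments, against 1.88 without correction (edgeR adjusted p = 0.0245, 0.0355 and 0.0506). It stayed called under the offsets and the covariate, and was lost without any 1 untreated mutant library or without untreated control replicate 1 or 3, with edgeR adjusted p of 0.0518 to 0.073. For mrp-6 the values were 0.67, 0.83 and 2.19 (edgeR adjusted p = 0.303 with offsets and 0.446 with the covariate). The value of 2.19 rests on 4 counts in untreated control replicate 2, the single untreated control library left. For pgp-3 the log2 fold changes were 1.69, 1.30 and 1.20 (edgeR adjusted p = 0.078 with offsets and 0.324 with the covariate). Removing 1 library ended the call of mrp-6 in 12 of 16 cases, with edgeR adjusted p of 0.0508 to 0.104: any 1 untreated mutant or untreated control library, copper-treated mutant replicate 1 or 3, or copper-treated control replicate 2 or 4. It ended that of pgp-3 in 12 of 16 cases, with edgeR adjusted p of 0.0529 to 0.108: any 1 untreated mutant library, copper-treated mutant replicate 1, 2 or 3, untreated control replicate 1, 3 or 4, or copper-treated control replicate 2 or 4. For haf-7 the values without copper were 0.98, 1.20 and 0.83 (edgeR adjusted p = 0.0528, 0.0735 and 0.281), and those for copper in the control were 1.14, 1.30 and 1.0 (0.133, 0.159 and 0.292). Its call without copper withstood the removal of every single library, with adjusted p up to 0.0483, whereas the call for copper in the control was lost in 11 of 16 removals, with adjusted p of 0.0551 to 0.151. These were any 1 untreated mutant library, copper-treated mutant replicate 1, 2 or 3, untreated control replicate 1 or 3, and copper-treated control replicate 3 or 4.

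For pgp-1, the call for copper in the mutant was kept under the 3 length treatments, at 2.42, 1.75 and 1.82 (edgeR adjusted p = 0.0181, 0.0173 and 2.76e-05). It was lost in 12 of 16 removals of 1 library, with log2 fold changes of 1.60 to 1.89 over all 16 removals and edgeR adjusted p of 0.0511 to 0.178. These were any 1 mutant library, untreated control replicate 3 and copper-treated control replicate 2, 3 or 4. The same treatments added calls of abt-4. On copper, mutant over control, abt-4 reached 1.30 with offsets, 1.20 with the covariate and 1.12 without the 5 libraries (edgeR adjusted p = 0.0768, 0.00898 and 0.00247). Between copper-treated and untreated mutants it reached 1.55, 1.08 and 1.03 (edgeR adjusted p = 0.048, 0.039 and 0.00217). Without the 5 libraries pgp-9 was also called on copper, at 1.40 ± 0.37 (edgeR adjusted p = 0.00704). The interaction of pgp-1 was called with offsets, at 3.56 (edgeR adjusted p = 0.0289), but was 1.85 with the covariate (0.366) and -1.15 without the 5 libraries (0.582), where the lone untreated control library had 0.311 CPM.

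Counts of called members under the length treatments stood beside the shares of all genes called in either direction. Without the 5 libraries 1 untreated control library is left, replicate 2. Counts from that fit are therefore given only for comparisons without untreated controls. In untreated mutants over untreated controls, 3 of 22 members were called with offsets (26.4% of all genes) and 2 with the covariate (9.16%). The offsets called haf-9 and mrp-5 higher and mrp-7 lower. Without the 5 libraries the log2 fold changes were 1.76 for haf-4, 2.98 for haf-9, 2.19 for mrp-6, 3.42 for pgp-1 and -0.60 for mrp-4. For pgp-1 the untreated control library left had 1 count. On copper, mutant over control, 1 member was called with offsets (6.54%), 2 with the covariate (15.6%) and 3 without the 5 libraries (23.4%). For copper in the control the counts were 0 with offsets (1.93%) and 0 with the covariate (1.01%), and haf-9 had a log2 fold change of 2.46 without the 5 libraries. For copper in the mutant they were 2 (3%), 2 (4.09%) and 3 (14.5%), with pgp-1 and abt-4 in each. For the interaction they were 2 with offsets (5.3%) and 0 with the covariate (2.6%).

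**Figure D5:**
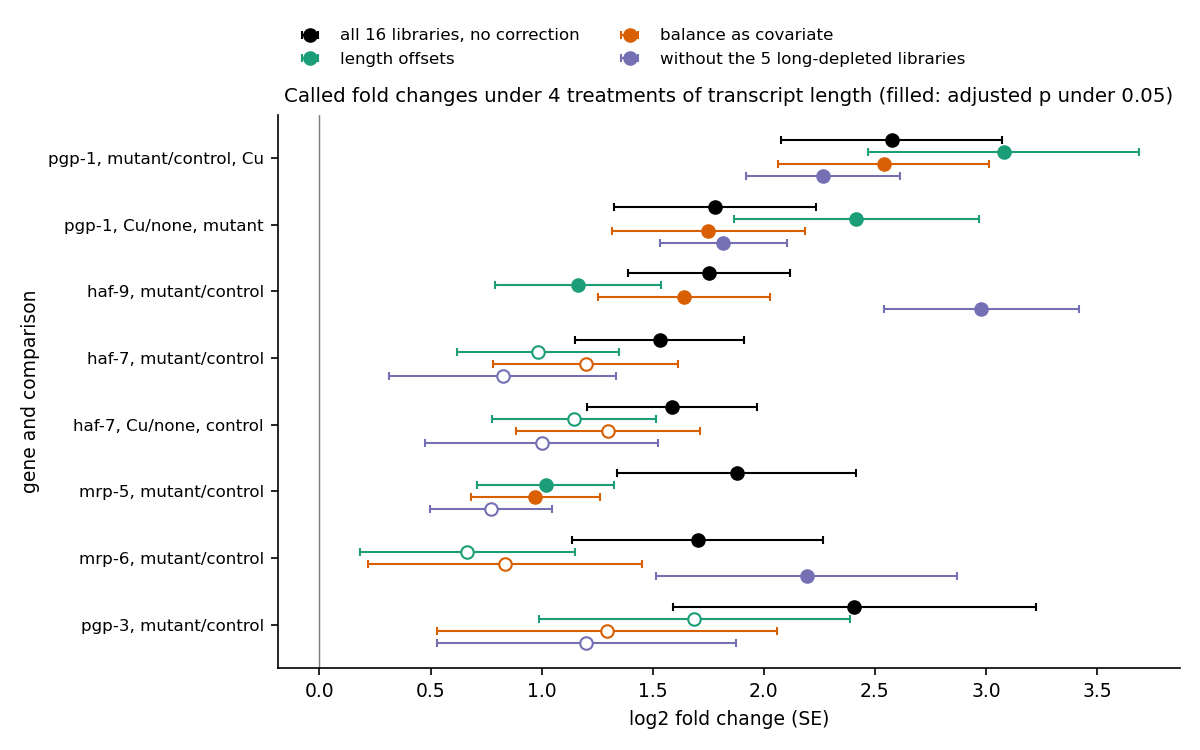
Log2 fold changes with standard errors (horizontal axis) of the 8 called combinations of gene and comparison (down the page), without correction and under 3 treatments of transcript length given by colour. Filled points have an adjusted p under 0.05. The points of pgp-1 on copper lie between 2.27 and 3.08 and those of haf-9 between 1.16 and 2.98, filled throughout, while open points appear for haf-7, mrp-5, mrp-6 and pgp-3.

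The 15 members under the count filter were pgp-5, pgp-7, pgp-8, pgp-10, pgp-12, pgp-13, pgp-14, pgp-15, mrp-8, haf-1, haf-8, abt-1, abt-3, abt-5 and abt-6. Of these, haf-8 and abt-6 had 0 counts, 3 had 1 to 3 counts and 10 had more than 10 over all libraries, with at most 15 in 1 library. The pgp-8 gene, within the tandem X cluster, had 15, 7, 8 and 3 counts in copper-treated mutants, 1, 3, 5 and 2 in untreated mutants, 0, 1, 0 and 0 in copper-treated controls and 0, 1, 0 and 0 in untreated controls. Each mutant library had counts of it, while 2 of the 8 control libraries did. Scaled to library size, copper-treated mutants over copper-treated controls gave a ratio of 26.8 (33 counts against 1, exact 95% counting interval 4.49 to 1090). Copper-treated over untreated mutants gave 3.32 (33 counts against 11, interval 1.64 to 7.29). The libraries of these 2 groups overlapped, at 1.1 CPM or more in copper-treated and up to 1.3 CPM in untreated mutants. Of the 33 counts, 15 came from 1 library. The gene was chosen after its values were seen. Intervals of such ratios, here and below, cover counting error alone and not the spread between samples. Without a filter on counts, edgeR called pgp-8 higher in copper-treated mutants than in copper-treated controls, at a fitted log2 fold change of 4.15 ± 1.07 that rests on 1 control count (adjusted p = 0.0211), a call made for 2 of the members in the unfiltered table and for 3.62% of its genes. Of its neighbours, pgp-5 had a ratio of 1.39 in the same contrast (24 against 14 counts, interval 0.692 to 2.91), and the tested pgp-6 a log2 fold change of 1.59 ± 0.71 (edgeR adjusted p = 0.256), and no difference between these genes was tested.

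For mrp-8, copper-treated over untreated controls gave a ratio of 3.39 (22 against 5 counts, interval 1.25 to 11.5). For abt-1, untreated mutants over untreated controls gave 3.77 (20 against 3 counts, interval 1.12 to 19.8). For haf-1, known as an exporter of peptides from mitochondria, the same contrast gave 1.08 (21 against 11 counts, interval 0.497 to 2.48). For pgp-14 it gave 2.36 (25 against 6 counts, interval 0.943 to 7.02). These genes were chosen after their values were seen, the intervals cover counting error alone, and the last 2 include 1. All 4 ratios are taken over untreated controls, 3 of 4 of which were long-depleted, and mrp-8 (4467 bp), abt-1 (4719 bp) and pgp-14 (4293 bp) are long genes.

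Other ABC genes of the table (wht, pmp, abcf and single genes such as ced-7) numbered 23, of which 2 exceeded 3000 bp and 13 were tested. In untreated mutants over untreated controls 1 of 13 rose, against 9.39% of all genes. It was pmp-1, of the class known for peroxisomal fatty acid transport, at 1.49 ± 0.47 (edgeR adjusted p = 0.0362). With length offsets 0 of the 13 were called higher and 3 lower, against 10.1% and 16.3% of all genes. With the length covariate 1 was called higher and 0 lower, against 6.68% and 2.47%. For pmp-1 the log2 fold change was 1.1 with offsets and 1.12 with the covariate (edgeR adjusted p = 0.075 and 0.175). It was 1.74 without the 5 long-depleted libraries. The pmp-1 call was lost without any 1 untreated mutant library or untreated control replicate 3 or 4 (edgeR adjusted p of 0.0639 to 0.0955). The same gene was called in the interaction, at -2.29 ± 0.65 (edgeR adjusted p = 0.0467), but not with offsets or the covariate (0.0905 and 0.25). That call was kept in 4 of 16 removals of 1 library, those of copper-treated mutant replicate 3, copper-treated control replicate 1 and untreated control replicates 1 and 2, and otherwise had an edgeR adjusted p of 0.0521 to 0.102. In the other 3 comparisons 0 of 13 were called by edgeR. At an unadjusted p under 0.05 there were 0 for copper-treated mutants over copper-treated controls, against 16.4% of all genes. At that threshold there was 1 for copper in the mutant (12% of all genes) and 3 for copper in the control (19.1%). Without the 5 long-depleted libraries, 2 of the 13 were called for copper-treated mutants over copper-treated controls, beside 23.4% of all genes. In the same fit 4 were called for copper in the mutant, beside 14.5%. The gene cua-1 itself had 17.7 ± 7.15 CPM in copper-treated mutants, 29.3 ± 7.21 CPM in untreated mutants, 24.6 ± 9.29 CPM in copper-treated controls and 11.8 ± 7.33 CPM in untreated controls (SD, n = 4 each). Its length is 3955 bp, in the class over 3000 bp, and 3 of the 4 untreated control libraries were long-depleted. No test of these levels is given. A missense allele is not readable from 3′ counts, so these levels do not check the labels.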

How the data were processed

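The authors deposited raw counts per gene, not normalized, for 46904 genes in 16 libraries. The submitters' processing notes list the build ce11 and the tools HTSeq, STAR 2.6.0a and bcl2fastq. The annotation release and strand setting are not given in the sources used here. Members and gene lists were chosen with earlier results of these data known. Tests ran in R 4.3.3 with edgeR 4.0.16, which uses limma 3.58.1: TMM, filterByExpr, 1 mean per group over 16 libraries (12 residual degrees of freedom), robust quasi-likelihood test, Benjamini-Hochberg over 9787 genes, which held 99.45% to 99.78% of counts. The procedure was tested on simulated data with the same spread for all genes and no effect of transcript length, so that test does not cover the long-depleted libraries. Genes were named if called in a comparison or highest in CPM in their family; others named singly were chosen after their values were seen. An Ensembl annotation of WBcel235 (the assembly of ce11) gave positions and lengths for 45893 genes. Alternatives were DESeq2 1.42.0 and its size factors, other filters (none beyond 1 count; a CPM minimum of 5 reached by 4 libraries), the compared libraries alone, a replicate block and leaving out each library. The 3 length treatments (lowess span 0.3) were chosen after seeing the data. No pair of libraries of the same group held identical counts.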

Additional observations from a re-analysis of the deposited data

Results flagged for a closer look

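A library far from the other 3 of its group was found in 4 of 56 sets of 4 libraries (members named above and family sums), where chance gives about 1 in 20. For pgp-1, copper-treated mutant replicate 2 had 16.7 CPM, with the others at 11.5 to 12.3 CPM. For haf-9, copper-treated control replicate 3 had 19.6 CPM, with the others at 13.9 to 14.8 CPM. For abt-4, copper-treated control replicate 2 had 15.2 CPM, with the others at 6.76 to 7.98 CPM. The summed mrp level of the long-depleted copper-treated mutant replicate 4 was 71.9 CPM, with the others at 144.8 to 157.5 CPM.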

How the results depend on the processing

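None of the 8 called combinations of gene and comparison changed direction under the alternatives run. Members called in untreated mutants over untreated controls numbered 5, against 3 with no filter beyond 1 count (9.01% of all genes in that fit), 3 with length offsets, 2 with the length covariate and 2 to 10 on leaving out 1 library. The 10 arose without untreated control replicate 2. The 2 arose without any 1 untreated mutant library or untreated control replicate 1 or 3, and were haf-9 and haf-7. DESeq2 kept the 5 members of the main fit and added mrp-1 and mrp-2 (DESeq2 adjusted p = 0.0215 and 0.0113). Leaving out copper-treated mutant replicate 4 or copper-treated control replicate 1 also added both (edgeR adjusted p of 0.0339 to 0.0463). DESeq2 size factors and a fit of the compared libraries each added mrp-2 (edgeR adjusted p = 0.048 and 0.0409). With copper, the count was 1 between the genotypes, against 2 with no filter (3.9%), 2 with the covariate and 3 without the long-depleted libraries, and stayed 1 to 1 on leaving out each library. For copper in the control it was 1, against 0 with no filter (0.871%), 0 in a fit of the compared libraries (0.165%), 0 with the replicate block (0.654%), 0 with offsets, 0 with the covariate, 2 with DESeq2 (4.5%) and 0 to 3 on leaving out a library. For copper in the mutant it was 1, against 0 with DESeq2 size factors (2.24%), 0 with the stricter filter (2.22%), 0 with the replicate block (1.66%), 2 with offsets, 2 with the covariate, 3 without the long-depleted libraries and 0 to 1 on leaving out a library. For the interaction it was 0, against 3 with DESeq2 (10.5%), 2 with offsets and 0 to 7 on leaving out a library. It reached 7 without untreated control replicate 2 and 5 without copper-treated control replicate 1. The cause was not tested. The labels do not say whether replicate numbers mark batches. Of 24 same-numbered pairs 6 correlated above 0.1 (range -0.597 to 0.554). In every other group at once, a strict condition, 0 of 16 libraries correlated best with their own number. These correlations cannot decide whether the numbers pair the samples, because the long-depleted libraries are spread unevenly over the numbers. With the block, 6 members were called in untreated mutants over untreated controls (14.5% of all genes), and pgp-1 had an adjusted p of 0.106 for copper in the mutant (edgeR). Offsets moved the median log2 fold change of all genes to -0.10 without copper and -0.12 with copper between the genotypes. The 15 members under the count filter were not tested, and low depth and absent expression cannot be told apart for them.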
